A study of Mus musculus with 4 samples.

Results

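Glycolysis and hypoxia genes were followed here through the immune cells of the mouse brain after stroke. They are 35 of the 31053 genes listed in the deposited count tables, chosen by symbol: 22 genes of glucose uptake, glycolysis and lactate handling, and 13 genes of the response to low oxygen. All 35 symbols were found, and none of them was a marker used to sort cells into classes. The cells came from the ischemic hemisphere of C57/BL6 mice after transient middle cerebral artery occlusion (tMCAO), in which a brain artery is blocked for a time and then reopened. There were 2 libraries from 14 days and 2 libraries from 5 days after the occlusion, each of cells sorted for a high level of CD45, a surface protein of leukocytes. The strain, the occlusion and the sort were common to all 4 libraries, and no sham group is used here. The labels give neither the age of the mice nor whether a library came from 1 mouse or several. In the day comparisons the p-values therefore measure only the spread between libraries, which may be technical. Comparisons between cell classes, of levels or of day changes, take library as a block. Their p-values measure the scatter left after class and library are taken out, pooled over the classes of the same 4 libraries.

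Glycolysis splits glucose into pyruvate in the cytosol, with transporters bringing glucose in, hexokinases trapping it, phosphofructokinase setting the pace and lactate dehydrogenase turning pyruvate into lactate. The transcription factor subunit HIF-1alpha, encoded by Hif1a, is destroyed in oxygen through the EGLN prolyl hydroxylases and is stable without it, when it switches on most genes of both lists. In myeloid cells the same programme is also known from inflammatory activation, without low oxygen.

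The transcription factor HIF-1 binds a short core, A or G followed by CGTG. Within the 300 bases around the start in the RefSeq promoter table (250 before and 50 after, build GRCm38.p6), ACGTG or GCGTG was searched on both strands, so CACGT and CACGC count as matches, and a CACGTG counts on both. At least 1 match was present in 10 of the 11 hypoxia genes and 15 of the 21 glycolysis genes with an entry, 78.1% of the 32 members, against 11836 of 27025 promoters of all genes (43.8%). A match describes letters and shows no binding. The promoters of the 4 hypoxia genes with the most UMIs among those with a match are printed. (A UMI is a unique molecular identifier, so its count is a count of captured RNA molecules.) In the day comparison Hif1a passed in 4 classes, Hilpda in 2 and Mif in 1, and P4ha1 passed between classes. Slc2a3, Bnip3l and Ndrg1 had no entry. Each is written 5′ to 3′ on the gene's strand with the core matches in capitals. Hif1a lies on the plus strand at chr12:73907617-73907916, P4ha1 on the plus strand at chr10:59323046-59323345, Mif on the minus strand at chr10:75860228-75860527 and Hilpda, from the first of its 2 listed starts, on the plus strand at chr6:29272238-29272537.
Hif1a promoter: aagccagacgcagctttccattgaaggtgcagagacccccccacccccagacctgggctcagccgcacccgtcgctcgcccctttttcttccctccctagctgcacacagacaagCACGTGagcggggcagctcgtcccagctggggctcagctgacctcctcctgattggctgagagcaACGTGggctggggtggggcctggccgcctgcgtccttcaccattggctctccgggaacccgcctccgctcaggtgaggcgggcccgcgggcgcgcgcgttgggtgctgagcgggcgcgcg
P4ha1 promoter: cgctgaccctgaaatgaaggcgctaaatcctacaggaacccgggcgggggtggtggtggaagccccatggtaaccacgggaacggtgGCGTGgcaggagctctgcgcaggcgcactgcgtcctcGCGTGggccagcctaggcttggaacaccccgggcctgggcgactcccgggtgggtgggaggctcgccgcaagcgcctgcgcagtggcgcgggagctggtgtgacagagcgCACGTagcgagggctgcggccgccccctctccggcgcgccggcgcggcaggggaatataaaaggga
Mif promoter: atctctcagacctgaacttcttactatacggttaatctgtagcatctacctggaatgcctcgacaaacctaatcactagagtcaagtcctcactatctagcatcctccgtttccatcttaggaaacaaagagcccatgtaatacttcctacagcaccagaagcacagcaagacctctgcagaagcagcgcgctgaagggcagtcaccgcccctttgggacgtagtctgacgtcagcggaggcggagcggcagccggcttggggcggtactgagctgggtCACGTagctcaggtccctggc
Hilpda promoter: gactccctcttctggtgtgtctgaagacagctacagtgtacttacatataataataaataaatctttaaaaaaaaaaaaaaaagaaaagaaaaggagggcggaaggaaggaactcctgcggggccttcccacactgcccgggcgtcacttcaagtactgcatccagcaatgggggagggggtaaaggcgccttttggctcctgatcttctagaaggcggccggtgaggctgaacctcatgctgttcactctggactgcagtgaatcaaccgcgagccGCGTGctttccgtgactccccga
The Hif1a and P4ha1 windows hold 3 matches each, of which 2 in Hif1a share the bases of a single CACGTG. The Mif and Hilpda windows hold 1 match each.

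The 4 libraries held 9288054 and 10759904 UMIs on day 14 and 10730791 and 13610119 UMIs on day 5. The lowest UMI count of a cell barcode was 1180 and 1317 on day 14, against 500 and 505 on day 5. Only the day 5 matrices name the software that wrote them (version 3.0.1), so day and upstream processing cannot be told apart. Each cell was given a class when it held UMIs of 3 or more of the 8 markers of that class and at least 1 more marker than of any other class. This left 8445 cells, 77.9% of the 10838 that passed the quality limits: 1979 and 1793 on day 14, against 1940 and 2733 on day 5. A class name below stands for cells that passed this gate, "microglia" thus for microglia-like cells. In every class at least 3 of its own markers stood among its 10 leading genes. The gate on these same markers favours that result, so it is no independent check of the class names. Of 14 classes, 11 had 20 or more cells in each library and were tested. The innate lymphoid or interleukin 17 lymphocytes, border-associated macrophages and plasmacytoid dendritic cells had fewer and are given, where at all, as values. The make-up of the sorted cells differed by day: microglia were 8.19% and 4.74% of class cells on day 14, against 41.5% and 54.5% on day 5. Marker lists of cells outside the sort were near 0. The endothelial list reached at most 0.474 per 10000 UMIs in a library, with Cldn5 at 0 in each, and the oligodendrocyte list 0.376. The neuronal, astrocyte and erythroid lists reached 0.0363 or less.

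Among the 11 tested classes, the glycolysis genes took the largest share of UMIs in monocytes, microglia, macrophages, Cst7 Spp1 phagocytes and neutrophils. Per 10000 UMIs of a class, their sum was 44.8 and 57.0 on day 14 against 65.1 and 63.5 on day 5 in monocytes. It was 45.7 and 54.6 on day 14 against 60.7 and 58.0 on day 5 in Cst7 Spp1 phagocytes, cells with the markers of the lipid-handling phagocytes of injured brain. Microglia, resident in the brain, had 47.7 and 53.2 on day 14 against 58.5 and 57.7 on day 5. In these 3 classes both day 14 libraries lay below both day 5 libraries, with a ratio of means of 0.791 in monocytes, 0.845 in Cst7 Spp1 phagocytes and 0.869 in microglia. The same order held in neutrophils (0.85), migratory dendritic cells (0.918) and the conventional dendritic cells cDC2 (0.814) and cDC1 (0.873), given below. It also held in the untested border-associated macrophages (0.8), so it was not particular to the first classes named. Monocyte-derived macrophages ran the other way in their means, with 51.7 and 63.6 on day 14 against 54.6 and 47.0 on day 5, though these ranges overlap. Neutrophils had 44.0 and 47.2 against 50.6 and 56.7. The lowest sums among tested classes were in B cells, with 21.1 and 27.6 on day 14 against 33.2 and 24.9 on day 5, and in migratory dendritic cells, which carry antigen to lymph nodes, with 24.3 and 25.1 against 28.1 and 25.7. Between them lay T cells (36.7 and 42.2 against 39.0 and 36.4) and NK cells (28.8 and 33.7 against 32.7 and 30.2). The conventional dendritic cells lay there too, cDC2 with 33.1 and 35.3 against 41.1 and 42.9 and cDC1 with 30.6 and 34.1 against 37.5 and 36.5. Of the untested classes, border-associated macrophages, which are myeloid too, had only 27.2 and 34.8 against 38.4 and 39.2, from 10 and 8 against 29 and 81 cells. Plasmacytoid dendritic cells had 20 and 28 against 25.7 and 27.4, as low as B cells. No p is given for a sum, and with 2 libraries a day an exact permutation test could not go below 0.333.

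**Figure D1:**
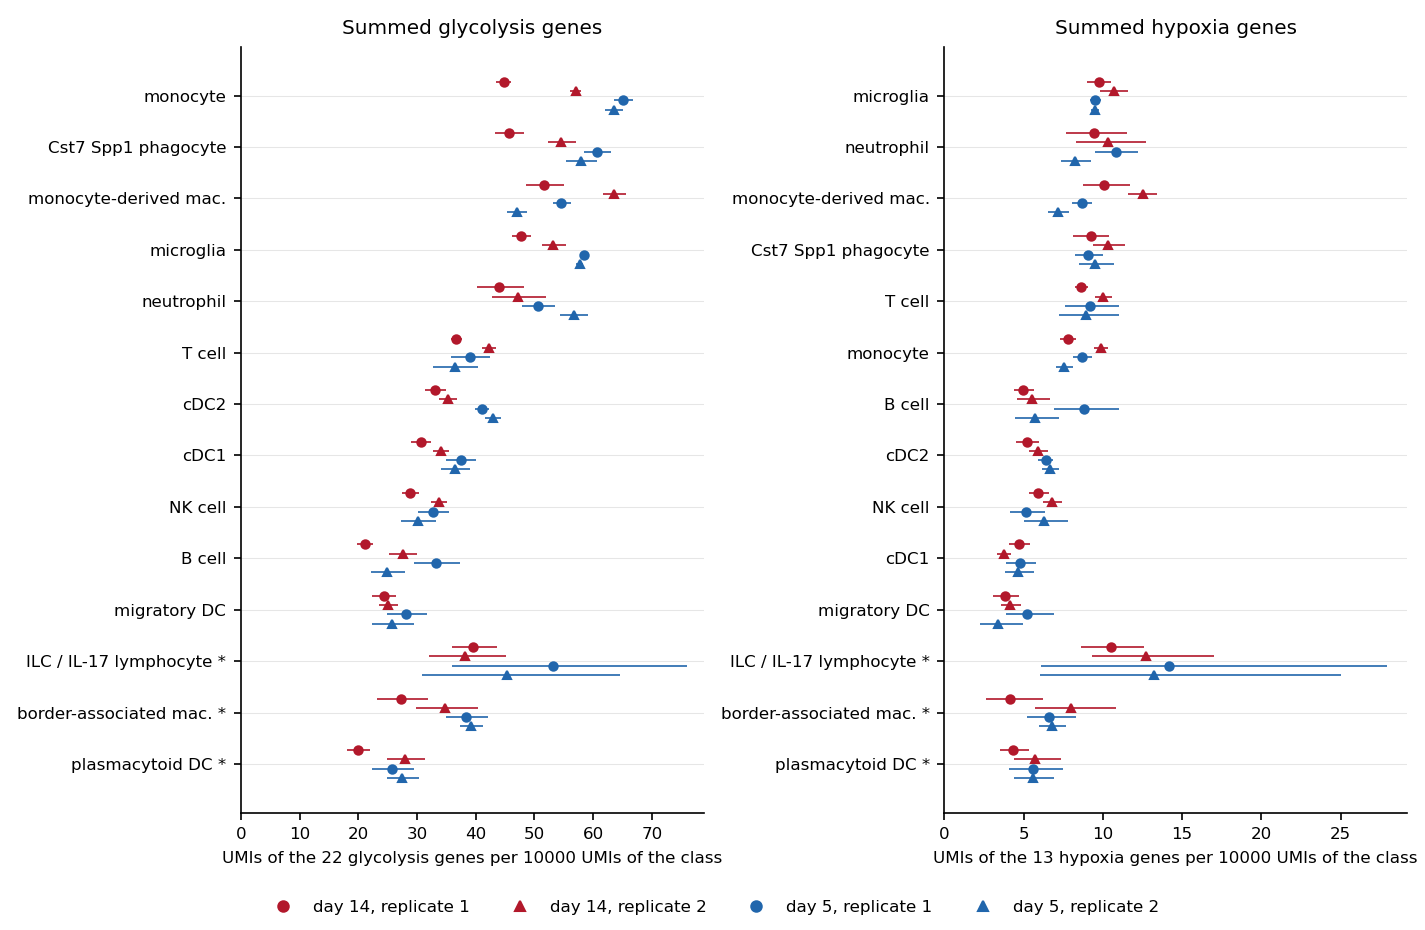
UMIs of the 22 glycolysis genes (one panel) and of the 13 hypoxia genes (the other) per 10000 UMIs of each class, one point per library with its exact 95% Poisson interval, which covers counting error only; an asterisk marks a class that was not tested. Monocytes, microglia, Cst7 Spp1 phagocytes, monocyte-derived macrophages and neutrophils lie highest for glycolysis, between 44.0 and 65.1, and of the tested classes B cells and migratory dendritic cells lowest, between 21.1 and 33.2; the untested plasmacytoid dendritic cells lie between 20 and 28.

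The hypoxia sum was smaller and ordered the classes differently. Monocyte-derived macrophages had 10.1 and 12.5 per 10000 UMIs on day 14 against 8.66 and 7.19 on day 5, the day 14 libraries both above the day 5 libraries. Microglia had 9.73 and 10.7 against 9.53 and 9.52, neutrophils 9.45 and 10.3 against 10.8 and 8.24, and T cells 8.64 and 10.0 against 9.20 and 8.96. T cells thus stood beside the myeloid classes in the hypoxia sum but not in the glycolysis sum. Monocytes had 7.79 and 9.87 against 8.68 and 7.56, and Cst7 Spp1 phagocytes 9.23 and 10.3 against 9.07 and 9.53. Migratory dendritic cells (3.81 and 4.16 against 5.24 and 3.39) and cDC1 (4.71 and 3.73 against 4.76 and 4.66) were lowest. The innate lymphoid or interleukin 17 lymphocytes reached 10.5 and 12.7 on day 14, from 58 and 18 cells, with only 3 and 4 cells on day 5. A few genes carry each sum. Gapdh gave 20.9% of the glycolysis UMIs, Pkm 14.4%, Aldoa 11.9%, Eno1 11% and Ldha 10.6%. Mif alone gave 42.5% of the hypoxia UMIs, before Bnip3l with 16.9% and Hif1a with 12.8%. Without Mif the order of the classes changed. Neutrophils then had 7.11 and 6.41 on day 14 against 6.94 and 5.86 on day 5, and monocytes 5.39 and 6.55 against 6.39 and 5.12. T cells had 4.91 and 5.52 against 4.94 and 5.1, and microglia 4.99 and 5.49 against 4.93 and 4.93. Cst7 Spp1 phagocytes had 4.08 and 4.82 against 4 and 3.76, near cDC2 with 3.79 and 4.05 against 4.49 and 4.44. After each cell was thinned to 1000 UMIs, the median cell held 5 glycolysis UMIs on day 14 against 6 on day 5 among monocytes, 3 on both days among T cells and 2 on both days among migratory dendritic cells.

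Gene by gene, 30 of the 35 members had enough counts for the comparison of each class with the mean of the other 10 classes (edgeR's quasi-likelihood test with Benjamini-Hochberg adjustment, library as a block). Of their 330 class comparisons, 194 passed, 114 higher and 80 lower, where 35.1% of all gene comparisons passed (26784 of 76307; 20.8% higher and 14.3% lower). Monocytes had 20 members higher and 0 lower (36.4% of all genes passed in monocytes), with a median log2 difference of 0.57 against 0.02 for all genes. Neutrophils had 19 higher and 1 lower (31.9%; median 0.73 against −0.06), microglia 18 and 4 (42.2%; 0.48 against 0.00), Cst7 Spp1 phagocytes 16 and 1 (25%; 0.54 against 0.05) and monocyte-derived macrophages 16 and 0 (30.7%; 0.56 against 0.03). The opposite held in B cells, with 0 higher and 17 lower (35%; −0.86 against −0.04), migratory dendritic cells with 4 and 15 (38.2%; −0.92 against −0.13), cDC1 with 3 and 14 (32%; −0.57 against −0.01) and NK cells with 5 and 13 (43.2%; −0.45 against 0.02). T cells were mixed, with 7 higher and 10 lower (45.7%; −0.14 against 0.04), as were cDC2 with 6 and 5 (25.8%; −0.07 against 0.03). The levels printed below are UMIs per 1000000 UMIs of the class in a library (CPM), while the log2 differences use TMM-scaled libraries. Using library sizes alone moved the median of all genes by 0.19 in T cells and in NK cells, by −0.31 in neutrophils and by −0.12 in migratory dendritic cells. It gave 188 member calls, 112 higher and 76 lower.

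**Figure D2:**
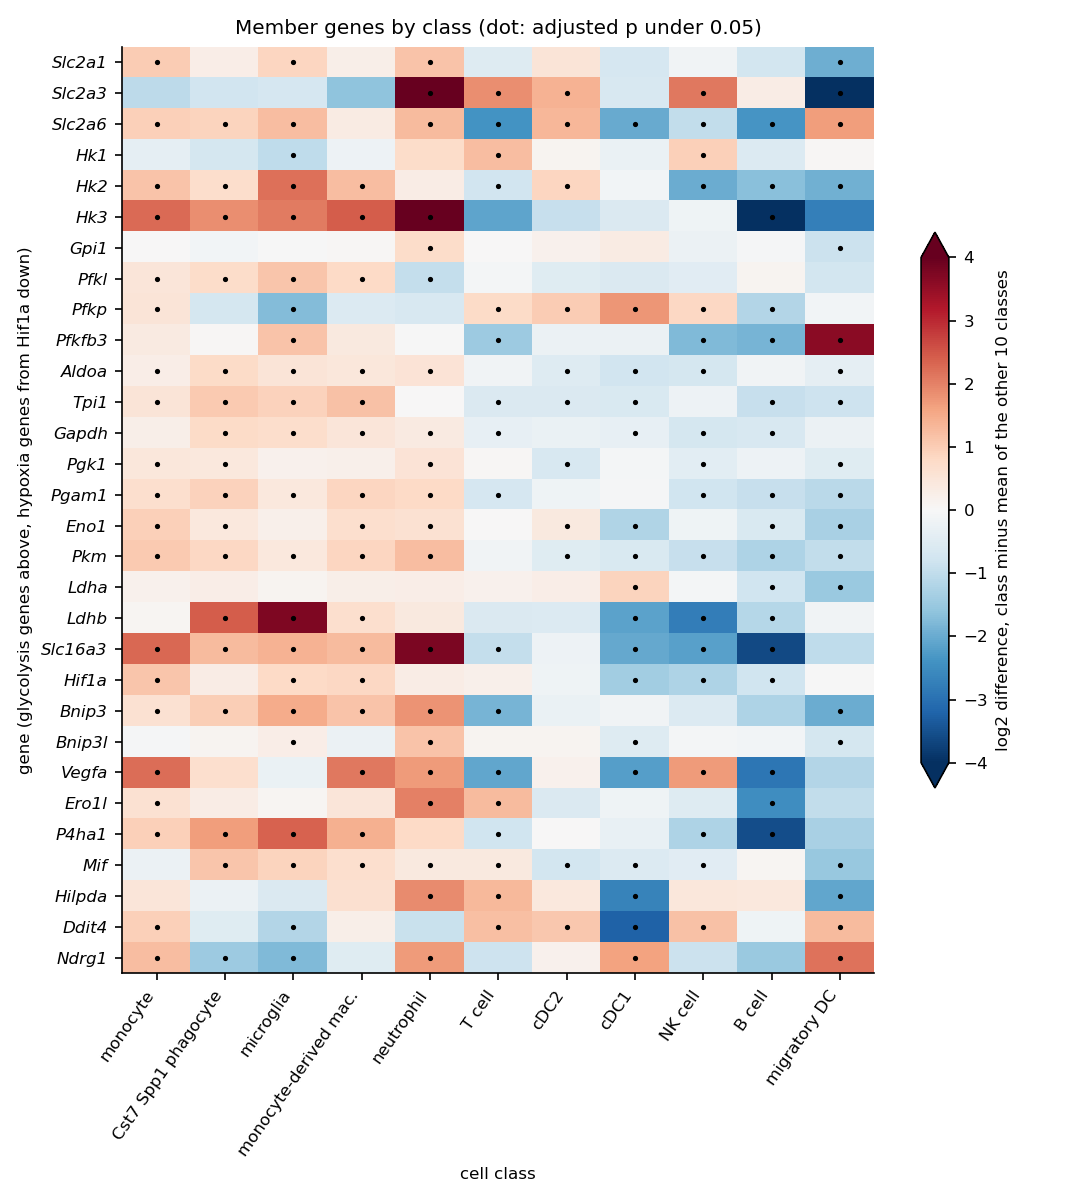
Log2 difference of each of the 30 tested members (rows) in each of the 11 tested classes (columns) from the mean of the other classes, coloured and clipped at 4 either side of 0, with a dot where the adjusted p was under 0.05. The myeloid columns are mostly above 0 and the B cell, cDC1 and migratory dendritic cell columns mostly below; Slc2a3 in migratory dendritic cells and Hk3 in B cells had no UMI, so their fitted values are not sizes.

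Glucose enters through transporters of the Slc2a family, and the 3 tested here differed in the classes that carried them. Slc2a3, the high-affinity transporter GLUT3, stood at 65.5 and 57.3 CPM on day 14 and 46.0 and 99.9 CPM on day 5 in neutrophils. No other class overlapped that range: the next were NK cells, with 12.8 and 16.3 CPM on day 14 and 39.8 and 37.0 CPM on day 5, and T cells, with 13.1 to 19.7 CPM. Neutrophils exceeded the mean of the other classes by 4.44 ± 0.34 on the log2 scale (SE; adjusted p = 1.08e-14), NK cells by 2.11 ± 0.40 (adjusted p = 2.68e-05) and T cells by 1.86 ± 0.36 (adjusted p = 3.73e-05). In migratory dendritic cells no Slc2a3 UMI was found in any library, which is at least 3.93-fold lower than the mean of the other classes, 14.1 CPM, at a floor of 3 counts over the 4 libraries (3.58 CPM). That call had adjusted p = 0.011, and 0.0953 without day 14 replicate 2. A class at 0 pulls the mean of the others down on the log scale by an amount the data do not fix. In cDC2, which had 10.2 and 19.4 CPM on day 14 and 10.9 and 10.9 CPM on day 5, the log2 difference was 1.38 ± 0.37 (adjusted p = 0.00399). The plain mean of the other classes (11.7 and 10.6 on day 14, 11.2 and 17.7 on day 5) was nevertheless above cDC2 in 3 of 4 libraries, and the call was lost without day 14 replicate 2 (1.11, adjusted p = 0.0965). The remaining tested classes, monocytes and microglia among them, had 8.19 CPM or less in each library.

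Slc2a1, the widely used transporter GLUT1, was higher in monocytes (35.1 and 47.9 CPM on day 14, 61.5 and 26.9 CPM on day 5), by 1.02 ± 0.18 (adjusted p = 7.72e-06). Microglia had 41.9 and 42.1 CPM on day 14 and 29.6 and 28.7 CPM on day 5, a difference of 0.85 ± 0.18 from the other classes (adjusted p = 1.82e-04). Neutrophils passed too (1.14 ± 0.37, adjusted p = 0.014), from 37.4 and 115 CPM on day 14 and 29.2 and 13.5 CPM on day 5, a wide spread, and the call was lost without day 14 replicate 2 (0.58, adjusted p = 0.361). Migratory dendritic cells were lowest, with 8.37 and 4.70 CPM on day 14 and 10.7 and 0 CPM on day 5 (−1.96 ± 0.56, adjusted p = 0.00462; 0.115 without day 14 replicate 2). In the other classes Slc2a1 ran from 7.40 to 40.4 CPM and did not pass. Slc2a6, a transporter of lysosomal membranes, passed as higher in 6 classes: neutrophils, microglia, Cst7 Spp1 phagocytes, monocytes, cDC2 and migratory dendritic cells. In Cst7 Spp1 phagocytes the Slc2a6 call was lost without day 5 replicate 2 (adjusted p = 0.101) or day 14 replicate 1 (0.142), and with classes taken from clusters the difference turned round (−1.06, adjusted p = 0.536). In neutrophils it was lost without day 14 replicate 1 (0.93, adjusted p = 0.11). It stood at 71.3 and 56.5 CPM on day 14 and 39.0 and 42.5 CPM on day 5 in cDC2, 1.34 ± 0.21 above the others (adjusted p = 1.47e-06). It stood at 37.7 and 61.1 CPM on day 14 and 42.8 and 87.9 CPM on day 5 in migratory dendritic cells, 1.68 ± 0.31 above (adjusted p = 2.13e-05).

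The hexokinases, which trap glucose in the cell as glucose 6-phosphate, divided the classes by isoform. Hk2, the inducible isoform bound to mitochondria, was highest in microglia, with 176 and 224 CPM on day 14 and 163 and 209 CPM on day 5. These values lay above each library of each other tested class. The log2 difference was 2.19 ± 0.11 (adjusted p = 1.80e-22). Monocyte-derived macrophages (123 and 134 CPM against 80.5 and 111 CPM) and monocytes (132 and 139 CPM against 85.1 and 85.4 CPM, day 14 against day 5) followed and overlapped each other. Cst7 Spp1 phagocytes had 64.2 to 85.1 CPM, cDC2 77.2 to 96.9, cDC1 38.5 to 64.5 and neutrophils 29.2 to 74.8. Lymphocytes were lower, with 35.5 to 48.1 CPM in T cells, 0 to 41 in B cells and 12.8 to 20.4 in NK cells, and migratory dendritic cells had 9.39 to 25.1. Hk3, the isoform of granulocytes and macrophages, was highest in neutrophils, with 93.5 and 45.8 CPM on day 14 and 83.6 and 132 CPM on day 5 (4.09 ± 0.33, adjusted p = 6.68e-14).

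Monocytes had 34.3 and 38.7 CPM of Hk3 on day 14 and 36.9 and 42.7 CPM on day 5 (2.27 ± 0.27, adjusted p = 1.74e-09). Monocyte-derived macrophages had 16.0 and 49.5 against 42.0 and 39.2 (2.41 ± 0.32, adjusted p = 3.21e-08), microglia 26 to 36.1 CPM (2.09 ± 0.27, adjusted p = 1.72e-08) and Cst7 Spp1 phagocytes 14.6 and 10.3 against 30.0 and 54.2 (1.87 ± 0.41, adjusted p = 4.42e-04). In the Cst7 Spp1 phagocytes the day 14 values lay below the plain mean of the other classes, 19.7 and 18.2 CPM, so the log2 difference again leans on classes near 0. B cells had no Hk3 UMI in any library, at least 7.09-fold below the mean of the other classes (24.3 CPM) at a floor of 3.42 CPM. The adjusted p was 0.0028, and it was 0.0508 and 1 with day 14 replicate 1 or 2 left out. Hk1, the housekeeping isoform, passed as higher in T and NK cells. T cells had 39.4 and 41.0 CPM on day 14 and 30.4 and 67.4 CPM on day 5 (1.23 ± 0.20, adjusted p = 2.42e-06), NK cells 33.0 and 34.0 against 56.8 and 29.6 (0.96 ± 0.24, adjusted p = 0.00114), and microglia only 5.78 and 12 against 12.6 and 9.77 (−1.02 ± 0.21, adjusted p = 6.39e-05).

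**Figure D3:**
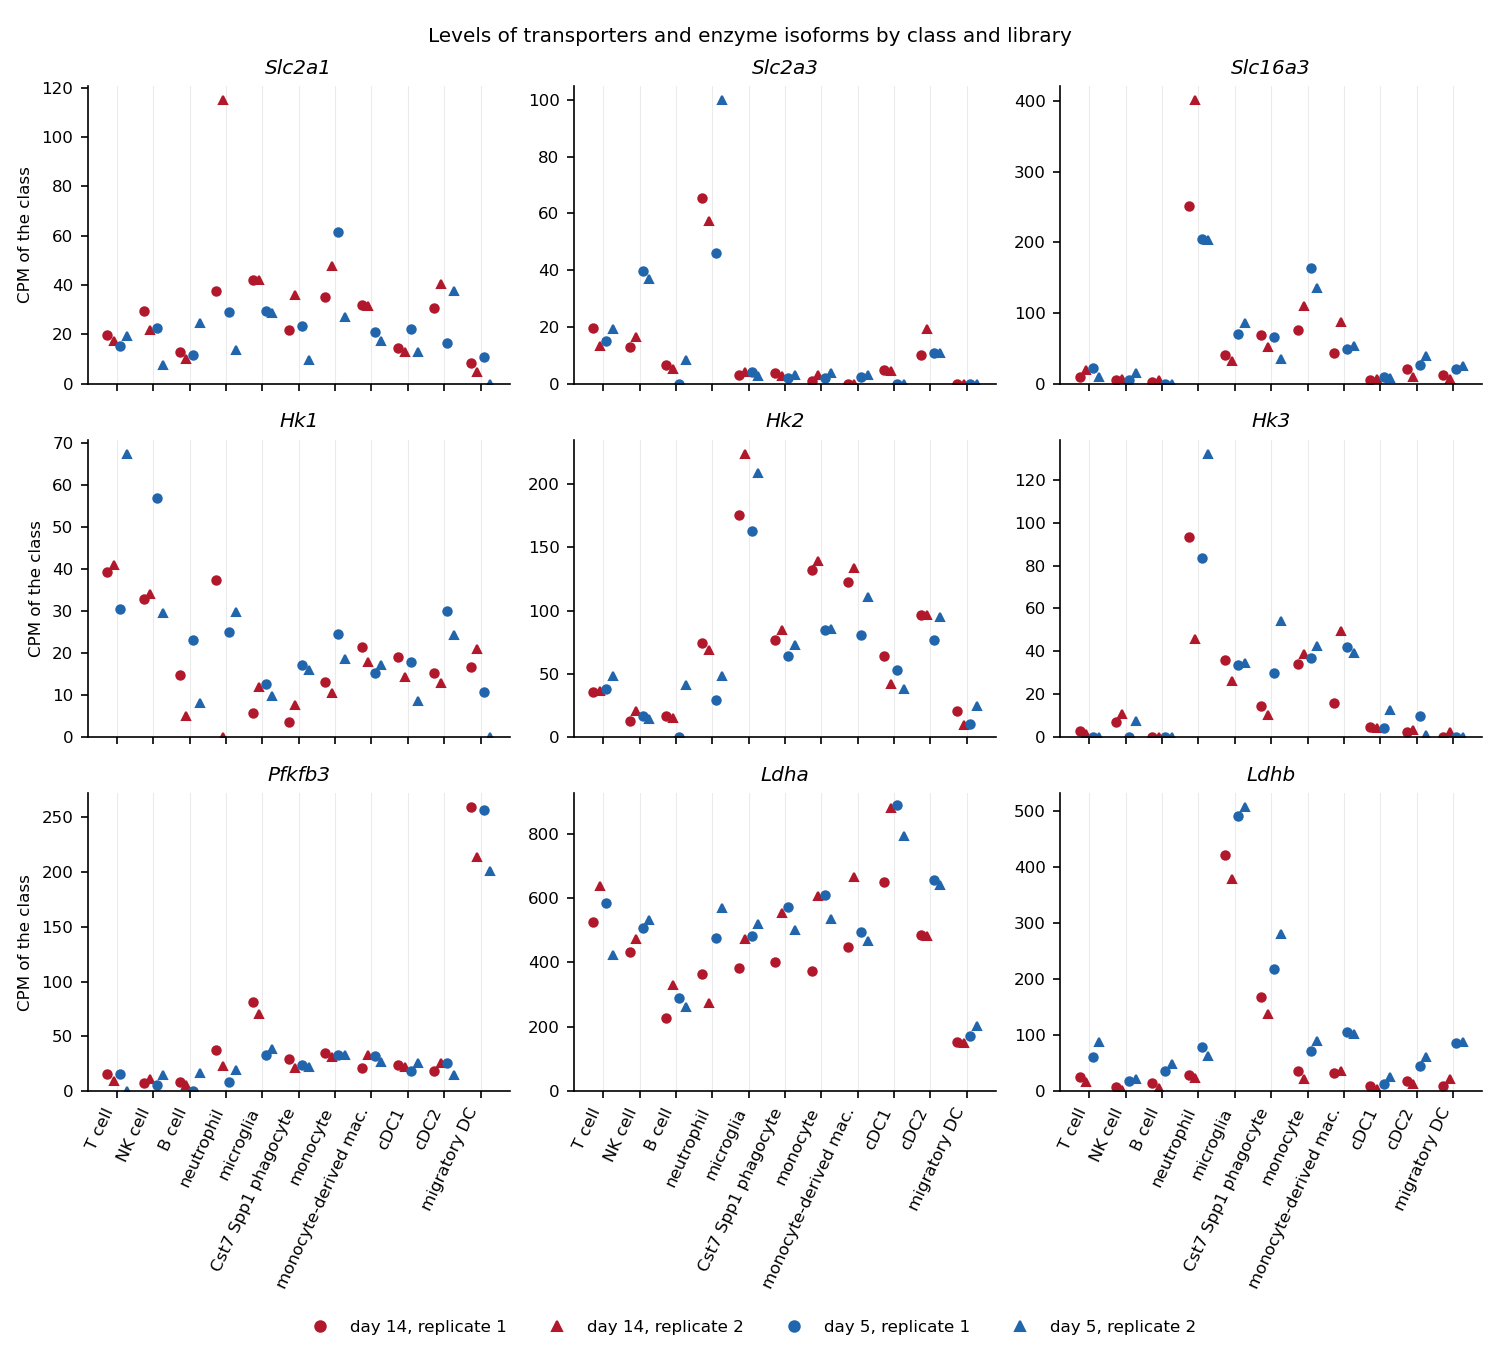
CPM of the transporters Slc2a1, Slc2a3 and Slc16a3, the hexokinases Hk1, Hk2 and Hk3, Pfkfb3 and the lactate dehydrogenases Ldha and Ldhb, one point per library in each tested class. Slc2a3, Hk3 and Slc16a3 peak in neutrophils, Hk2 and Ldhb in microglia, Pfkfb3 in migratory dendritic cells and Ldha in cDC1.

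Phosphofructokinase commits sugar to glycolysis, and Pfkfb3 makes the fructose 2,6-bisphosphate that activates it. Pfkfb3 was highest in migratory dendritic cells. Migratory dendritic cells had 259 and 214 CPM on day 14 and 257 and 201 CPM on day 5, while the plain mean of the other classes was 27.6 and 25 on day 14, against 19.3 and 21.0 on day 5. The log2 difference was 3.62 ± 0.18 (adjusted p = 3.28e-22), in a class where 15 of 30 tested members were lower. Thinned to 1000 UMIs, 25.4% and 18% of migratory dendritic cells held a Pfkfb3 UMI on day 14 and 37.5% and 25.9% on day 5. In B cells the same share was 0.966% and 0% on day 14, against 0% and 0% on day 5. Without thinning it was 59.3% and 49.4% against 50% and 39.3% in migratory dendritic cells, and 1.93% and 1.23% against 0% and 2.74% in B cells.

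Microglia followed for Pfkfb3, with 80.9 and 70.1 CPM on day 14 and 32.7 and 37.9 CPM on day 5 (1.14 ± 0.16 above the other classes, adjusted p = 3.06e-08). Monocytes (31.3 to 34.3 CPM), monocyte-derived macrophages (21.4 to 33.0), Cst7 Spp1 phagocytes (20.6 to 29.2), cDC1 (17.8 to 25.7), cDC2 (14.6 to 25.8) and neutrophils (8.36 to 37.4) overlapped one another. T, NK and B cells had 16.4 CPM or less and passed as lower. Of the phosphofructokinase subunits, the platelet type Pfkp had its largest difference in cDC1, with 177 and 205 CPM on day 14 and 151 and 141 CPM on day 5 (1.78 ± 0.19, adjusted p = 9.51e-11). Pfkp was also higher in T cells, monocytes, cDC2 and NK cells, in NK cells not without day 5 replicate 1 (adjusted p = 0.1). In microglia Pfkp was at 11.6 and 16.0 against 18.4 and 17.4 CPM (−1.75 ± 0.22, adjusted p = 3.21e-09). The liver type Pfkl was there at 111 and 96.2 against 113 and 112 CPM (1.11 ± 0.14, adjusted p = 4.99e-09). Neutrophils were low in Pfkl, at 28.1 and 22.9 CPM on day 14 and 33.4 and 18.9 CPM on day 5 (−0.96 ± 0.35, adjusted p = 0.0314), a call lost without either day 5 library (adjusted p = 0.0772 and 0.152) and turned round with classes from clusters (0.03, adjusted p = 0.975).

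Gapdh, which makes the NADH of glycolysis, ran from 1065 to 1380 CPM in Cst7 Spp1 phagocytes and from 1096 to 1402 CPM in microglia, where the log2 differences were 0.76 and 0.70 and both passed. It was lower in B cells, with 414 to 765 CPM (−0.65 ± 0.13, adjusted p = 1.09e-04), and in NK cells, with 489 to 790 CPM (−0.70 ± 0.13, adjusted p = 1.35e-05). Pkm, the last step to pyruvate, was highest in monocytes (752 and 1000 CPM on day 14, 1419 and 1316 CPM on day 5; 1.06 ± 0.10, adjusted p = 2.92e-12) and neutrophils (851 and 1225 against 848 and 1075; 1.24 ± 0.11, adjusted p = 7.27e-13). Tpi1, which interconverts the triose phosphates, was higher in microglia, Cst7 Spp1 phagocytes, monocytes and monocyte-derived macrophages. Pgam1, the mutase, and Aldoa, the aldolase of most tissues, passed as higher in those 4 classes and in neutrophils. In monocytes the Aldoa difference was 0.28 ± 0.10 (adjusted p = 0.0269), lost without either day 5 library (0.0906 and 0.1) or without day 14 replicate 2 (0.0824). In neutrophils Aldoa missed the threshold on day 14 alone (0.32, adjusted p = 0.16), as did Pgam1 (0.65, adjusted p = 0.0604). Eno1, the main enolase, was higher in monocytes, monocyte-derived macrophages, neutrophils, Cst7 Spp1 phagocytes and cDC2. In cDC2, Pgk1, the first step that yields ATP, was lower, with 94.2 and 116 CPM on day 14 and 99.9 and 129 CPM on day 5 (−0.65 ± 0.14, adjusted p = 2.34e-04). Gpi1, the isomerase after hexokinase, passed in 2 of the 11 classes. Neutrophils had 122 and 126 CPM on day 14 and 343 and 537 CPM on day 5, a difference of 0.73 ± 0.20 from the other classes (adjusted p = 0.00387). That call rests on day 5: the difference was 0.02 without day 5 replicate 2 (adjusted p = 0.996) and turned to −0.93 on day 14 alone (adjusted p = 0.0119). Migratory dendritic cells were lower in Gpi1 (−0.87 ± 0.25, adjusted p = 0.00511). Gapdh and Eno1 have near-identical copies (pseudogenes of Gapdh, and Eno1b), so their counts are uncertain in how reads were shared.

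At the end of the pathway, Ldha, which makes lactate, was highest in cDC1, with 650 and 879 CPM on day 14 and 889 and 792 CPM on day 5 (0.90 ± 0.11, adjusted p = 1.12e-08). It was lowest in migratory dendritic cells, at 151 and 148 against 171 and 201 CPM (−1.50 ± 0.17, adjusted p = 2.87e-10), and low in B cells, at 226 and 330 against 290 and 262 CPM (−0.79 ± 0.15, adjusted p = 2.96e-05). In the other classes it lay between 275 and 665 CPM without passing the test. Ldhb, the isoform that favours making pyruvate from lactate, was highest in microglia: 422 and 379 CPM on day 14 and 491 and 507 CPM on day 5, where the mean of the other classes was 34.6 and 27.8 CPM on day 14 and 73.2 and 86.7 CPM on day 5. The difference was 3.74 ± 0.13 (adjusted p = 5.48e-28). Cst7 Spp1 phagocytes came second, at 168 and 137 CPM on day 14 and 218 and 280 CPM on day 5 (2.43 ± 0.18, adjusted p = 1.29e-15). NK cells had 7.33 and 1.36 against 17 and 22.2 CPM (−2.77 ± 0.39, adjusted p = 8.79e-08).

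The lactate exporter Slc16a3 (MCT4) was highest in neutrophils, with 252 and 401 CPM on day 14 and 205 and 203 CPM on day 5 (3.76 ± 0.22, adjusted p = 5.51e-19). Monocytes came next without overlap, at 75.6 and 110 CPM on day 14 and 163 and 136 CPM on day 5 (2.3 ± 0.17, adjusted p = 1.04e-15). NK and B cells carried little of it. NK cells had 5.49 and 6.79 against 5.68 and 14.8 CPM (−2.16 ± 0.48, adjusted p = 2.29e-04), and B cells 2.13 and 5.00 against 0 and 0 CPM (−3.61 ± 0.74, adjusted p = 1.11e-04). Neutrophils thus led for glucose entry by Slc2a3, for Hk3 and for lactate exit by Slc16a3. The rare isoforms gave few counts and were not tested between classes. Of the 30 Eno2 UMIs (the neuronal enolase), the migratory dendritic cells held 41.8 and 18.8 CPM on day 14 and 0 and 37.7 CPM on day 5, and each other class was at 2 CPM or less in each library. Aldoc, the aldolase of brain, had 114 UMIs, with the highest levels in cDC1 (4.78 and 4.32 CPM on day 14, 26.7 and 12.8 CPM on day 5).

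Among the hypoxia genes, Hif1a itself was highest in monocytes, at 173 and 248 CPM on day 14 and 146 and 115 CPM on day 5 (1.12 ± 0.11 above the other classes, adjusted p = 6.15e-12). Monocyte-derived macrophages (0.84 ± 0.13, adjusted p = 1.26e-06) and microglia (0.81 ± 0.11, adjusted p = 6.01e-08) overlapped them, with 84.6 to 210 and 89.9 to 176 CPM. T cells had 60.8 to 131 CPM, Cst7 Spp1 phagocytes 47.8 to 150, neutrophils 32.4 to 149, cDC2 43.7 to 119 and migratory dendritic cells 50.2 to 109, none of which passed. Lower levels were found in B cells (16.4 to 81.1 CPM; −0.79 ± 0.22, adjusted p = 0.00406, and 0.064 without day 14 replicate 1), NK cells (29.6 to 53.1 CPM; −1.22 ± 0.19, adjusted p = 6.49e-07) and cDC1 (30 to 44.5 CPM; −1.40 ± 0.20, adjusted p = 2.23e-07). Of the oxygen sensors, Egln1 had 298 UMIs and Egln3, itself a HIF target, 217, and neither was tested between classes. Egln1 was at 0 to 19.3 CPM in T cells, 7.4 to 16.5 in NK cells, 3.08 to 14.9 in monocytes and 5.78 to 10.1 in microglia, and at 14.1 or less in the other tested classes. Egln3 stood at 18.7 and 57.3 CPM on day 14 and 8.36 and 16.2 CPM on day 5 in neutrophils. It was at 9.57 and 14.0 against 15.2 and 19.3 in T cells and 17.3 and 12 against 6.70 and 8.45 in microglia, and no B cell UMI was found. In the other tested classes Egln3 was at 10.3 CPM or less.

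Vegfa, the angiogenic factor, had its largest differences in monocytes and macrophages. Monocytes had 35.1 and 47.9 CPM on day 14 and 28.7 and 13 CPM on day 5 (2.23 ± 0.27, adjusted p = 2.57e-09), and monocyte-derived macrophages 48.1 and 31.5 against 29.2 and 9.40 CPM (2.12 ± 0.36, adjusted p = 4.47e-06). Neutrophils had 37.4 and 11.5 against 8.36 and 13.5 CPM (1.71 ± 0.64, adjusted p = 0.0335), a call lost without day 5 replicate 2 (0.243) or day 14 replicate 1 (0.123). NK cells had 40.3 and 29.9 against 0 and 7.40 CPM (1.70 ± 0.39, adjusted p = 4.09e-04). Cst7 Spp1 phagocytes had 3.19 to 18 CPM, cDC2 1.61 to 11.8, and microglia only 1.45 to 6.01. B cells, cDC1 and migratory dendritic cells had 7.04 CPM or less. B cells and cDC1 passed as lower, and both calls were lost without any 1 of the 4 libraries (adjusted p = 0.065 to 1 in B cells and 0.063 to 1 in cDC1). T cells had 0.563 and 5.75 against 0 and 0 CPM (−2.07 ± 0.63, adjusted p = 0.00615), a call lost without day 14 replicate 1 (−0.88, adjusted p = 1) and without day 14 replicate 2 (−3.77, adjusted p = 1). Adm, the vasodilator adrenomedullin, had 57 UMIs and was not tested. B cells had 19.2 and 15.0 CPM on day 14 and 11.6 and 8.19 CPM on day 5. Migratory dendritic cells had 8.37 and 9.39 against 85.6 and 37.7 CPM and cDC2 5.09 and 11.3 against 3.63 and 0 CPM. No Adm UMI was found in T cells, NK cells, neutrophils or cDC1, and the other tested classes had 2.14 CPM or less.

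The mitophagy receptor Bnip3 was higher in microglia (39.0 and 40.1 CPM on day 14, 48.1 and 54.8 CPM on day 5; 1.49 ± 0.18, adjusted p = 2.50e-09), in monocyte-derived macrophages (48.1 and 55.5 against 28.0 and 36.1; 1.15 ± 0.24, adjusted p = 1.47e-04) and in neutrophils (37.4 and 22.9 against 91.9 and 32.4; 1.81 ± 0.33, adjusted p = 2.04e-05). Monocytes (21.1 to 40.8 CPM; 0.61 ± 0.20, adjusted p = 0.0153) and Cst7 Spp1 phagocytes (25.5 to 46.4 CPM; 0.97 ± 0.29, adjusted p = 0.00999) passed as higher too. The monocyte call was lost without day 5 replicate 2 (0.0666) or either day 14 library (0.0618 and 0.172), that of Cst7 Spp1 phagocytes without either day 14 library (0.0517 and 0.172). T cells were low at 5.07 and 6.57 against 7.60 and 9.63 CPM (−1.86 ± 0.36, adjusted p = 3.63e-05). NK cells (11 to 28.4 CPM), cDC1 (8.56 to 31.1), cDC2 (13.6 to 22.6) and B cells (0 to 24.6) did not pass. Migratory dendritic cells had 0 to 25.1 CPM (−1.98 ± 0.63, adjusted p = 0.011), also lost without either day 14 library (0.0745 and 0.181). Its relative Bnip3l was highest in neutrophils, at 318 and 183 against 192 and 230 CPM (1.14 ± 0.13, adjusted p = 1.09e-09), and passed as higher in microglia too (0.25 ± 0.10, adjusted p = 0.0383), there lost without either day 5 library (0.0977 and 0.0646). P4ha1, a prolyl hydroxylase of collagen, was highest in microglia, at 106 and 126 CPM on day 14 and 82.7 and 91.3 CPM on day 5 (2.36 ± 0.17, adjusted p = 1.02e-16). Behind microglia came Cst7 Spp1 phagocytes (62.0 and 72.2 against 53.5 and 63.7; 1.68 ± 0.25, adjusted p = 5.67e-07) and monocyte-derived macrophages (85.5 and 73.5 against 40.8 and 43.9; 1.42 ± 0.23, adjusted p = 1.73e-06), and monocytes passed as well. Mif, a macrophage cytokine, had its largest differences in Cst7 Spp1 phagocytes (507 to 577 CPM; 1.10 ± 0.12, adjusted p = 1.75e-10) and microglia (459 to 521 CPM; 0.88 ± 0.11, adjusted p = 4.90e-09). It was low in migratory dendritic cells (87.9 to 113 CPM; −1.51 ± 0.19, adjusted p = 4.08e-09) and cDC2 (143 and 187 against 190 and 223 CPM; −0.74 ± 0.13, adjusted p = 2.01e-05). Mif has near-identical copies in the genome, so its counts are uncertain as well.

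Hilpda, a brake on the breakdown of lipid droplets, was highest in neutrophils, at 65.5 and 160 CPM on day 14 and 184 and 130 CPM on day 5 (1.88 ± 0.34, adjusted p = 1.40e-05), and was high in T cells, at 91.8 and 130 against 83.6 and 48.1 CPM (1.29 ± 0.26, adjusted p = 6.85e-05). NK cells (11.4 to 96.3 CPM), monocyte-derived macrophages (65.8 to 81.7), monocytes (40.4 to 119) and cDC2 (15.3 to 112) did not pass. Neither did B cells (23.2 to 66.1 CPM), Cst7 Spp1 phagocytes (7.29 to 66.9) or microglia (11.6 to 52.5). In cDC1 it was at 2.39 and 5.76 against 22.2 and 12.8 CPM (−2.67 ± 0.54, adjusted p = 1.20e-04). Migratory dendritic cells had 12.6 and 7.04 against 32.1 and 0 CPM (−2.07 ± 0.67, adjusted p = 0.0123), a call lost without day 14 replicate 2 (−1.73, adjusted p = 0.129). Ero1l (Ero1a in RefSeq), an oxidase for protein folding in the endoplasmic reticulum, was high in T cells, at 47.3 and 32.8 against 45.6 and 57.8 CPM (1.28 ± 0.25, adjusted p = 4.40e-05). It was higher in neutrophils too, at 28.1 and 0 against 66.8 and 62.1 CPM (2.01 ± 0.36, adjusted p = 1.11e-05), but not on day 14 alone (−0.07, adjusted p = 1). In monocytes (23.5 to 35.3 CPM) Ero1l passed as higher by 0.60 ± 0.23 (adjusted p = 0.0321), lost without either day 5 library (0.123 and 0.159).

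Ddit4, an inhibitor of the growth kinase mTORC1, was low in cDC1, at 0 and 0 CPM on day 14 and 13.3 and 4.28 CPM on day 5 (−3.24 ± 0.58, adjusted p = 1.57e-05). It was high in cDC2 at 61.1 and 35.5 against 40.9 and 46.1 CPM (1.09 ± 0.23, adjusted p = 2.51e-04). It passed as higher also in migratory dendritic cells (25.1 to 85.6 CPM; 1.27 ± 0.37, adjusted p = 0.00486, and 0.0619 without day 14 replicate 1), in T cells (19.3 to 62.4 CPM; 1.20 ± 0.24, adjusted p = 5.11e-05) and in monocytes (25.1 to 65.6 CPM; 0.95 ± 0.20, adjusted p = 1.75e-04). NK cells had 33.0 and 61.2 against 45.5 and 51.8 CPM (1.18 ± 0.27, adjusted p = 4.37e-04). The NK cell difference was 0.76 with adjusted p = 0.102 without day 14 replicate 2. Microglia had 6.01 to 10.8 CPM (−1.17 ± 0.27, adjusted p = 3.55e-04; −0.79 and 0.112 without day 5 replicate 1). Neutrophils (0 to 16.7 CPM), Cst7 Spp1 phagocytes (6.37 to 23.5), monocyte-derived macrophages (21.9 to 27) and B cells (5 to 41) did not pass. Ndrg1, a stress-induced regulator of growth, was high in migratory dendritic cells, at 25.1 and 56.4 against 53.5 and 12.6 CPM (2.16 ± 0.36, adjusted p = 3.17e-06), and in cDC1, at 26.3 and 43.2 against 17.8 and 34.2 CPM (1.62 ± 0.30, adjusted p = 2.98e-05). Neutrophils and monocytes passed as higher too. Microglia had 2.89 and 2.00 against 2.51 and 4.47 CPM (−1.78 ± 0.32, adjusted p = 1.04e-05). In Cst7 Spp1 phagocytes (3.65 and 7.73 against 2.14 and 3.19 CPM; −1.46 ± 0.56, adjusted p = 0.0497) the call was lost without either day 5 library (adjusted p = 0.205 and 0.141) and without day 14 replicate 1 (adjusted p = 0.204).

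Between the days, most members did not pass the test. Of 245 comparisons of day 14 with day 5 (each class alone, edgeR's quasi-likelihood test with Benjamini-Hochberg adjustment), 24 passed, 12 higher and 12 lower on day 14, where 5.19% of all gene comparisons passed (3.57% higher and 1.62% lower). With library sizes in place of TMM factors there were also 24 calls, 9 higher and 15 lower. That scaling moved the median of all genes by −0.15 in NK cells, −0.23 in B cells, 0.16 in neutrophils, −0.13 in microglia and −0.12 in monocytes. DESeq2 made 5 calls. Aldoc, Eno2 and Adm had too few counts in each class to be tested by day, and 11 members could be tested in all 11 classes. Only 5 of the 24 calls passed without each single library in turn: Hif1a and Pfkfb3 in microglia, Hilpda in Cst7 Spp1 phagocytes and in cDC2, and Ldhb in monocyte-derived macrophages. By class, the share of all genes that passed was 2.1% in T cells, 5.55% in NK cells, 4.45% in B cells, 19.6% in neutrophils, 2.61% in microglia and 6.07% in Cst7 Spp1 phagocytes. It was 6.47% in monocytes, 5.77% in monocyte-derived macrophages, 2.08% in cDC1, 7.39% in cDC2 and 2.68% in migratory dendritic cells. No member passed in B cells (12 tested) or cDC1 (16 tested). Several classes lay in other cell clusters on day 14 than on day 5. Microglia lay mainly in clusters 22 and 2 on day 14 (48.6% and 30% of the class) and in clusters 2 and 4 on day 5 (40.7% and 34.9%). Cst7 Spp1 phagocytes lay mainly in cluster 22 on day 14 (49.4%) and in cluster 4 on day 5 (47.6%). Monocytes lay in cluster 7 on day 14 (72.4%) and in clusters 13 and 12 on day 5 (34.1% and 31.5%), monocyte-derived macrophages in cluster 7 (76.1%) and cluster 12 (66.9%), and cDC2 in cluster 14 (86.3%) and cluster 3 (78.9%). In these bulk sums, a change in the make-up of a class and a change in RNA per cell cannot be told apart.

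**Figure D4:**
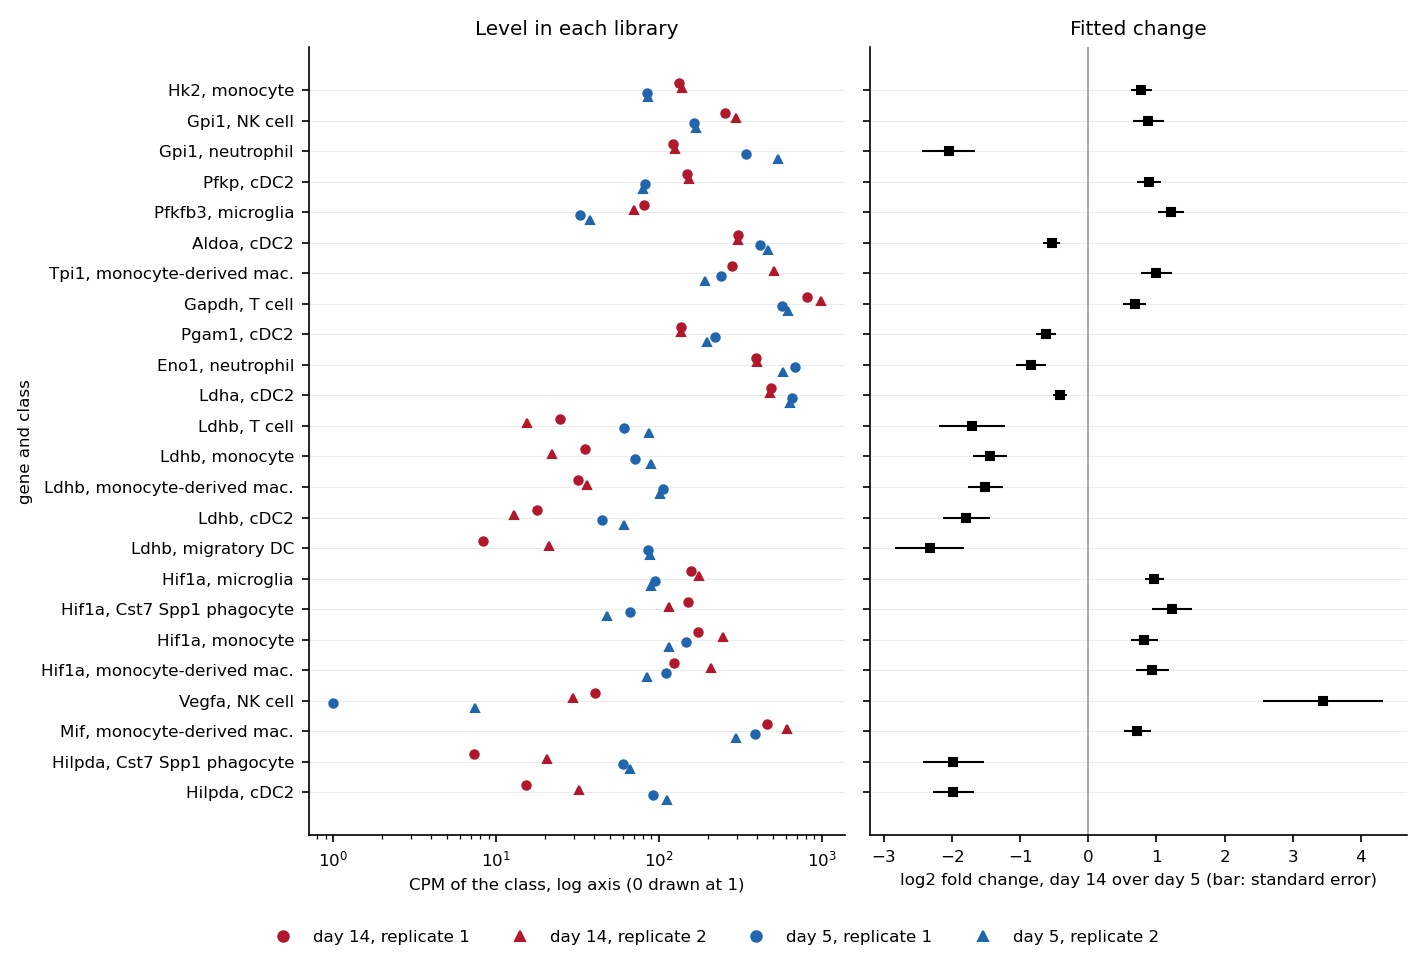
The 24 day comparisons of members with an adjusted p under 0.05: CPM in each library on a log axis, with 0 drawn at 1, beside the log2 change of day 14 over day 5 with its SE. Hif1a is higher on day 14 in 4 phagocyte classes, Ldhb is lower on day 14 in 5 classes and Hilpda is lower in 2.

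The rise of Hif1a passed in 4 phagocyte classes. In microglia it was at 158 and 176 CPM on day 14, against 94.7 and 89.9 CPM on day 5, a log2 change of 0.97 ± 0.14 (adjusted p = 0.00621). In Cst7 Spp1 phagocytes it was at 150 and 116 against 66.3 and 47.8 CPM (1.23 ± 0.29, adjusted p = 0.0122; 1.05 and 0.0703 without day 5 replicate 2). In monocytes, with 173 and 248 against 146 and 115 CPM, the change was 0.82 ± 0.20 (adjusted p = 0.0425). It missed the threshold without day 5 replicate 2 (0.0909) and without either day 14 library (0.0802, and 0.432 with a change of 0.51). In monocyte-derived macrophages, with 123 and 210 against 110 and 84.6 CPM, it was 0.94 ± 0.24 (adjusted p = 0.0385), lost without day 5 replicate 2 (0.377) or day 14 replicate 2 (0.733, with a change of 0.37). With library sizes alone the adjusted p was 0.0505 in monocyte-derived macrophages and 0.0616 in monocytes. No day 14 library overlapped a day 5 library in any of the 4 classes, which were picked by the day test on the same values, so this adds no support. Neutrophils had a log2 change of 1.28 ± 0.44 that missed the threshold (adjusted p = 0.0697), and cDC1 had −0.04 ± 0.41 (adjusted p = 0.981). Changes of similar size to that of monocytes did not pass in NK cells (0.83 ± 0.44, adjusted p = 0.411) and cDC2 (0.76 ± 0.29, 0.161). The same held in migratory dendritic cells (0.68 ± 0.49, 0.581) and T cells (0.62 ± 0.33, 0.517), so the rise was not particular to phagocytes. No class differed from the others in its day change of Hif1a at the threshold.

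Markers of other phagocytes moved with Hif1a in these classes, with none of the markers named here at 0. In microglia the 8 Cst7 Spp1 phagocyte markers summed to 83.0 and 134 per 10000 UMIs on day 14 against 50 and 38.4 on day 5, and the 8 markers of monocyte-derived macrophages to 539 and 542 against 332 and 291. In monocyte-derived macrophages the Cst7 Spp1 phagocyte markers summed to 161 and 235 against 54.0 and 47.0. In monocytes they summed to 14.5 and 49.1 against 16.4 and 8.19, where the groups overlap. Cst7 Spp1 phagocytes had 152 and 304 against 146 and 146 of their own markers and 16.0 and 23.0 against 11.2 and 6.95 of the 8 monocyte markers. Neutrophil markers were high in day 5 replicate 2, at 5.17 and 3.96 against 11.4 and 121 in monocytes and 1.71 and 7.92 against 2.57 and 92.4 in monocyte-derived macrophages. The part of these cell types in the day changes of Hif1a, Mif, Pfkfb3, Hk2 and Tpi1 in these classes was not tested.

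Hilpda, a known HIF-1 target, fell in 2 classes, in one of which (Cst7 Spp1 phagocytes) Hif1a rose. In cDC2 it was at 15.3 and 32.3 CPM on day 14, against 91.7 and 112 CPM on day 5 (−1.98 ± 0.30, adjusted p = 0.00125). In Cst7 Spp1 phagocytes it was at 7.29 and 20.6 against 59.9 and 66.9 CPM (−1.98 ± 0.45, adjusted p = 0.00959). The groups of libraries did not overlap in either class, which adds no support, as both were picked by the day test on these values. Microglia had 11.6 and 16.0 against 52.5 and 37.8 CPM (−1.59 ± 0.37), which missed the threshold (adjusted p = 0.0552), while monocyte-derived macrophages had 69.5 and 81.0 against 81.7 and 65.8 CPM (0.12 ± 0.24, adjusted p = 0.883). Vegfa and Mif passed in 1 class each. Vegfa in NK cells was at 40.3 and 29.9 CPM, 44 UMIs, on day 14, against 0 and 7.40 CPM, 1 UMI, on day 5 (log2 change 3.44 ± 0.88, adjusted p = 0.0285). The ratio of counts was 10.7 with an exact 95% interval of 1.82 to 431, and the call was lost without day 5 replicate 1 (2.34, adjusted p = 0.412). The 8 summed monocyte markers in NK cells, Vcan at 0, were 11.2 and 13.7 per 10000 UMIs on day 14 and 10.6 and 10.1 on day 5. Mif in monocyte-derived macrophages was at 460 and 612 against 389 and 296 CPM (0.72 ± 0.20, adjusted p = 0.0499), lost without either day 5 library (0.0609 and 0.456) or without day 14 replicate 2 (0.312), and at 0.0741 with library sizes alone.

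Ldhb passed as lower on day 14 in 5 classes and did not pass in microglia. In neutrophils (−1.59 ± 0.54, adjusted p = 0.0665) and Cst7 Spp1 phagocytes (−0.65 ± 0.22, adjusted p = 0.0977) it was lower without passing. Monocytes had 35.1 and 22.1 CPM on day 14, against 71.8 and 90.0 CPM on day 5 (−1.45 ± 0.25, adjusted p = 0.00773; −1.10 and 0.194 without day 14 replicate 2). Monocyte-derived macrophages had 32.1 and 36.0 against 106 and 102 CPM (−1.51 ± 0.26, adjusted p = 0.00288). In cDC2 Ldhb was at 17.8 and 12.9 against 44.5 and 60.7 CPM (−1.79 ± 0.35, adjusted p = 0.00751; 0.222 without day 14 replicate 2). Migratory dendritic cells had 8.37 and 21.1 against 85.6 and 87.9 CPM (−2.33 ± 0.51, adjusted p = 0.0213; 0.356 and 0.232 without either day 5 library). T cells had 24.8 and 15.6 against 60.8 and 86.7 CPM (−1.71 ± 0.48, adjusted p = 0.0471), a call lost without any 1 of the 4 libraries (adjusted p = 0.324 to 0.996). In microglia, with 422 and 379 against 491 and 507 CPM, the change was −0.19 ± 0.12 (adjusted p = 0.542). It differed from the mean change of the other classes by 1.40 ± 0.20 (adjusted p = 3.91e-05), where 1.1% of all gene comparisons of this kind passed (0.966% in microglia).

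Microglial RNA moved with Ldhb in the 5 classes that passed. The 8 microglial markers, none of which was at 0 in the 5 classes, summed to 1.88 and 1.31 per 10000 UMIs on day 14 against 4.30 and 4.78 on day 5 in monocytes and to 4.33 and 4.11 against 9.01 and 10.3 in monocyte-derived macrophages. They summed to 1.71 and 1.21 against 4.41 and 6.66 in cDC2, to 2.22 and 2.07 against 6.31 and 3.77 in migratory dendritic cells and to 1.63 and 1.35 against 3.65 and 5.39 in T cells. Per 100 UMIs of these markers, Ldhb had 18.7 and 16.8 UMIs on day 14 against 16.7 and 18.8 on day 5 in monocytes, 10.4 and 10.7 against 10.1 and 9.11 in cDC2, and 15.2 and 11.6 against 16.7 and 16.1 in T cells. It had 7.41 and 8.76 against 11.8 and 9.92 in monocyte-derived macrophages and 3.77 and 10.2 against 13.6 and 23.3 in migratory dendritic cells. In microglia themselves the ratio was 5.73 and 5.85 on day 14 against 6.46 and 5.94 on day 5. The part of microglial RNA in the lower Ldhb of these classes was not tested.

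Pfkfb3 rose in microglia, at 80.9 and 70.1 CPM on day 14, against 32.7 and 37.9 CPM on day 5 (1.22 ± 0.19, adjusted p = 0.00887), while migratory dendritic cells had 259 and 214 against 257 and 201 CPM (0.06 ± 0.27, adjusted p = 0.967). The microglial change was not shown to differ from the mean change of the other classes (0.97 ± 0.31, adjusted p = 0.139), nor was that of Hk2 in monocytes (adjusted p = 0.388), of Gapdh in T cells (0.0562) or of Pfkp in cDC2 (0.21). Thinned to 1000 UMIs a cell, the microglial Pfkfb3 change was 0.56 (adjusted p = 0.761) and the microglial Hif1a change 0.48 (adjusted p = 0.659). Hk2 rose in monocytes, at 132 and 139 against 85.1 and 85.4 CPM (0.78 ± 0.16, adjusted p = 0.0151), a call lost without day 14 replicate 1 (0.123) or day 14 replicate 2 (0.22). The neutrophil markers in monocytes, given with Hif1a, were lower on day 14. Gapdh rose in T cells, at 814 and 986 against 570 and 616 CPM (0.68 ± 0.17, adjusted p = 0.0195), lost without either day 5 library (0.248 and 0.137) or without day 14 replicate 2 (0.269). Cell cycle markers summed in those T cells to 12.6 and 11.8 per 10000 UMIs on day 14 and 11.6 and 1.06 on day 5, and with cycling cells left out the Gapdh change was 0.48 (adjusted p = 0.139). Gpi1 rose in NK cells, at 255 and 298 against 165 and 170 CPM (0.88 ± 0.23, adjusted p = 0.0315), lost without day 5 replicate 1 (0.305) or day 5 replicate 2 (0.205) and at 0.0825 with library sizes alone. It differed from the mean change of the other classes by 0.98 ± 0.27 (adjusted p = 0.0445), where 2.18% of all genes passed in NK cells. The Cst7 Spp1 phagocyte markers in monocyte-derived macrophages, given with Hif1a, were higher on day 14. Cst7 Spp1 phagocytes themselves had 230 to 291 CPM of Tpi1, and their part in the Tpi1 change was not tested. Tpi1 rose in monocyte-derived macrophages, at 283 and 510 against 239 and 193 CPM (1.00 ± 0.23, adjusted p = 0.0231). Without day 14 replicate 2 the change was 0.43 (adjusted p = 0.416), and without day 5 replicate 2 the adjusted p was 0.293. It differed from the mean change of the other classes by 1.05 ± 0.21 (adjusted p = 0.00647), where 0.548% of all genes passed in monocyte-derived macrophages.

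In cDC2 the change touched several steps. Of 26 members tested there, 1 rose and 5 fell (7.39% of all genes passed in cDC2). Pfkp rose to 148 and 152 CPM on day 14, against 81.7 and 80.1 CPM on day 5 (0.89 ± 0.17, adjusted p = 0.0065; 0.123 without day 14 replicate 2). Ldha fell to 486 and 483 against 656 and 641 CPM (−0.42 ± 0.10, adjusted p = 0.0275), Aldoa to 308 and 305 against 420 and 470 CPM (−0.54 ± 0.12, adjusted p = 0.02) and Pgam1 to 137 and 136 against 221 and 198 CPM (−0.62 ± 0.15, adjusted p = 0.0265). No day 14 library overlapped a day 5 library for any of these genes, but they were picked by their day test on the same values, so this adds no support. The Ldha call was lost without each of the 4 libraries (adjusted p = 0.087 to 0.161). That of Aldoa was lost without day 5 replicate 2 (0.133) or either day 14 library (0.0934 and 0.164). That of Pgam1 was lost without day 5 replicate 1 (0.154) or either day 14 library (0.125 and 0.228). Monocyte markers in cDC2 summed to 44.9 and 52.7 per 10000 UMIs on day 14 against 17 and 16.0 on day 5, with Vcan at 0. In monocyte-derived macrophages they summed to 70.4 and 71.0 against 24.6 and 24.8, with none at 0. Their part in these changes was not tested.

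In neutrophils 2 glycolytic genes fell. Gpi1 fell to 122 and 126 CPM on day 14, against 343 and 537 CPM on day 5 (−2.05 ± 0.39, adjusted p = 0.00728), lost without day 14 replicate 1 (0.13) or day 14 replicate 2 (0.0641). Eno1 fell to 393 and 401 against 689 and 575 CPM (−0.84 ± 0.22, adjusted p = 0.0264), lost without day 14 replicate 1 (0.205) or day 14 replicate 2 (0.151) and at 0.15 with library sizes alone. These are 2 of 19 members tested in neutrophils, where 19.6% of all genes passed. Against the mean day change of the other classes, neutrophils were lower for 4 members (4.34% of all genes passed in neutrophils). These were Gpi1 (−2.3 ± 0.33, adjusted p = 6.67e-06), Ldha (−0.86 ± 0.24, adjusted p = 0.0302), Gapdh (−0.58 ± 0.17, adjusted p = 0.0395) and Ero1l (−3.56 ± 0.99, adjusted p = 0.027), on a scale where the median gene of this contrast stood at −0.28. With library sizes alone that median was 0.02 and Gpi1 still passed, while Ldha was at adjusted p = 0.239, Gapdh at 0.518 and Ero1l at 0.0553. The Ldha call was lost without day 5 replicate 2 (0.391) or day 14 replicate 2 (0.5). The Gapdh call was lost without day 5 replicate 2 (0.254) or either day 14 library (0.0896 and 0.431). The Ero1l call was lost without either day 5 library (0.0569 and 0.159) or without day 14 replicate 2 (0.297).

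The neutrophil class differed in make-up by day. On day 14, 96.7% of its cells lay in cluster 6, against 63.1% on day 5, when 33.3% lay in cluster 15. Ngp, a granule gene of immature neutrophils picked after the data were seen, was at 1721 and 0 CPM on day 14 against 19886 and 34147 CPM on day 5. Within cluster 6 alone (48 and 40 cells on day 14, 102 and 76 on day 5) Ngp was at 0 and 0 against 24.4 and 67.6 CPM, and Gpi1 was at 118 and 111 CPM on day 14 against 170 and 237 CPM on day 5. Eno1 within cluster 6 was at 392 and 420 against 714 and 654 CPM, about the level of all neutrophils. Ldha was at 372 and 284 against 422 and 586 CPM, Gapdh at 784 and 839 against 852 and 913 CPM, and Ero1l at 29.4 and 0 against 32.5 and 45.1 CPM. The difference of Gpi1 between the days was smaller within cluster 6 than in all neutrophils. The members were left out of the genes that formed the clusters, while Ngp was not left out. The split by cluster was made after the data were seen, so no test is given. Dissociation stress genes summed to 30.9 and 33.3 per 10000 UMIs in neutrophils on day 14 and 18.5 and 15.1 on day 5, and their part was not tested.

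**Figure D5:**
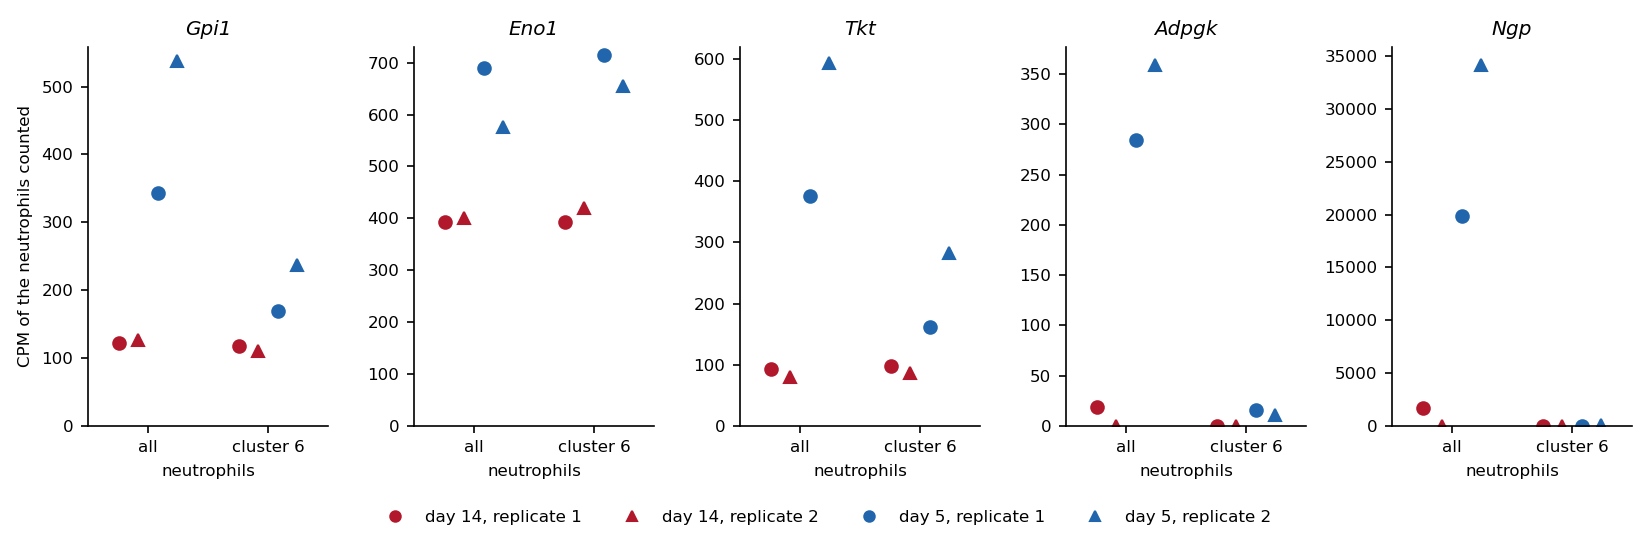
CPM of Gpi1, Eno1, Tkt, Adpgk and Ngp in each library, in all neutrophils and in the neutrophils of cluster 6 alone. Within cluster 6 Eno1 lies at 392 and 420 on day 14 against 714 and 654 on day 5 and Gpi1 at 118 and 111 against 170 and 237, while Adpgk and Ngp lie at 67.6 or less in cluster 6 on both days.

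Eno1 has a near-identical copy, Eno1b, whose counts differed between the days in all classes together: 17.4 and 8.60 CPM on day 14 against 0.738 and 1.43 CPM on day 5, beside 422 and 499 against 664 and 527 CPM for Eno1. The part of this shift in the Eno1 values was not tested.

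The other genes of these pathways gave a background for the members. Of 26 other glycolysis genes, 7 were tested between classes, with 13 comparisons higher and 6 lower of 77. Of 32 other hypoxia genes, 17 were tested, with 40 comparisons higher and 28 lower of 187. The 7 genes of the pentose phosphate pathway, which makes NADPH from glucose 6-phosphate, gave 21 higher and 20 lower of 77. The 16 genes of the tricarboxylic acid cycle, the mitochondrial oxidation of acetyl groups, gave 17 higher and 11 lower of 176. Of all gene comparisons between classes, 35.1% passed. Neutrophils had 6 of the 7 pentose phosphate genes higher (31.9% of all genes passed in neutrophils, 1343 higher and 873 lower of 6937). Pgd was at 187 and 137 CPM on day 14 and 238 and 216 CPM on day 5 (2.06 ± 0.15 above the other classes, adjusted p = 7.10e-16). Some of the 6 had most of their level on day 5. Rpia was at 9.35 and 11.5 CPM on day 14 against 66.8 and 54 on day 5, and Rpe at 28.1 and 11.5 against 71 and 45.9. Tkt, given below, was also lower on day 14, while Taldo1 was at 842 and 813 against 877 and 940 CPM. Of the 16 tricarboxylic acid cycle genes, neutrophils had 5 lower and 1 higher. Microglia had 7 of the 17 other hypoxia genes higher (42.2% of all genes passed in microglia, 1767 higher and 1158 lower of 6937). These were led by Bhlhe41 at 116 and 102 against 132 and 147 CPM (3.61 ± 0.17, adjusted p = 1.69e-22) and Plod1, a collagen-modifying enzyme, at 72.3 and 92.2 against 104 and 108 CPM (2.70 ± 0.17, adjusted p = 3.35e-18). By day, 2 of 42 comparisons of other glycolysis genes passed, 1 of 111 of other hypoxia genes, 3 of 62 of the pentose phosphate pathway and 4 of 144, all lower, of the tricarboxylic acid cycle (5.19% of all gene comparisons by day passed). Among these, Tkt, transketolase, fell in neutrophils to 93.5 and 80.2 CPM on day 14, against 376 and 594 CPM on day 5 (−2.68 ± 0.42, adjusted p = 0.00286), and within cluster 6 it was at 98.0 and 86.4 against 162 and 282 CPM. Mdh2, the mitochondrial malate dehydrogenase, fell in cDC2 (−0.94 ± 0.12, adjusted p = 4.51e-04), monocyte-derived macrophages (−0.78 ± 0.19, adjusted p = 0.0239) and neutrophils (−1.03 ± 0.30, adjusted p = 0.0369).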

How the data were processed

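Per the labels' protocols, CD45high cells of the ischemic hemisphere were profiled by droplet RNA sequencing of transcript 3' ends (10x Genomics, v2). The authors deposited raw UMI counts per gene and barcode, already called as cells and not normalized; tools named in the submitters' processing notes are Seurat 2.3.4 and Cell Ranger 3.0.1, with build GRCm38 (mm10). The annotation release and any strand setting are not given in the sources used here. Of 2 rows named Aldoa, the one without UMIs was not used.

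Barcodes under 200 genes (3) or over 10% mitochondrial UMIs (81) were left out of 10925, and so, after the data were seen, were 3 with 3 or more basophil UMIs. Scrublet, run through scanpy 1.11.5, called 9 doublets, too few for such libraries, so 422 mixed cells were left out (lymphocytes over 2% phagocyte UMIs, other cells at 3 or more T or B cell UMIs). Libraries shared 5 to 16 barcodes. UMIs were summed per class and library and tested with edgeR 4.0.16 in R 4.3.3 (TMM, filterByExpr, adjusted p under 0.05), two-sided; median depth per barcode was 2882 and 4230 UMIs on day 14 and 3502 and 3023.5 on day 5. Libraries of one day differed by a chi-square per gene of 23.6 and 16.9, so none was a copy. Intervals are 95% Poisson or binomial and cover counting error only. Replicate numbers did not pair the libraries (correlations −0.15 to 0.03).

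Members, lists and tests were chosen with earlier results of these data known. Named were each member called by day or in the test of differing day effects, for each class up to 3 higher and 2 lower members with the largest difference, and a list of 12 in each class. Alternatives were DESeq2 1.42.0, library sizes, filters, gates, clusters, thinning and leaving out libraries. The tests were checked on simulated data. Protein sequences are not used here.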

Additional observations from a re-analysis of the deposited data

Results flagged for a closer look

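Day changes of 7 members differed between a class and the mean of the other classes, out of 330 such tests. Of all gene comparisons of this kind, 1.1% passed (842 of 76307). All values are log2 differences from edgeR with Benjamini-Hochberg adjustment. Microglia differed for Ldhb by 1.40 ± 0.20 (adjusted p = 3.91e-05). Neutrophils had lower values for Gpi1 (−2.3 ± 0.33, adjusted p = 6.67e-06), Ldha (−0.86 ± 0.24, adjusted p = 0.0302), Gapdh (−0.58 ± 0.17, adjusted p = 0.0395) and Ero1l (−3.56 ± 0.99, adjusted p = 0.027). The median gene of this neutrophil contrast stood at −0.28. With library sizes alone Ldha, Gapdh and Ero1l did not pass, and each was also lost without some single libraries, as given above. Tpi1 in monocyte-derived macrophages differed by 1.05 ± 0.21 (adjusted p = 0.00647), with adjusted p = 0.0846 without day 5 replicate 1, 0.138 without day 5 replicate 2 and 0.782 without day 14 replicate 2. Gpi1 in NK cells differed by 0.98 ± 0.27 (adjusted p = 0.0445), a call lost without each single library (adjusted p = 0.122 to 0.519).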

How the results depend on the processing

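The 24 member calls by day became 5 with DESeq2, 8 with the stricter gate, 2 with cells thinned to 1000 UMIs and 9 to 25 with 1 library left out; those of all genes (2753) became 1460, 1719, 1173 and 1822 to 2305, and 4408 with no filter on low counts. The replicate block gave 26 member calls and the crossed pairing 36; the replicate numbers share no named origin. The 194 member calls between classes became 98 when thinned and 168 to 178 with 1 library left out, and those of all genes (26784) 14697 from the day 5 libraries alone, 10191 when thinned and 20309 to 23738 with 1 library left out. The 7 member calls on differing day effects became 4 with library sizes, 12 with no filter, 3 with the stricter gate, 1 when thinned and 2 to 7 with 1 library left out, and those of all genes (842) 466 with the stricter gate, 427 when thinned and 305 to 497. Within a library, the glycolysis sum of the highest tested class was on average 2.46 times that of the lowest, and 2.61 without its top gene, 2.34 without mitochondrial and ribosomal genes, 2.58 as a mean over cells, 2.71 with the stricter gate and 2.59 with cluster classes. Class differences turned round for Slc2a6 (0.32) and P4ha1 (0.11) in T cells on day 5 alone, for Gapdh (−0.00), Gpi1 (−0.93) and Ero1l (−0.07) in neutrophils on day 14 alone, for Bnip3l in cDC1 when thinned (0.47), and with cluster classes for Pfkl in neutrophils (0.03) and for Slc2a6 (−1.06), Hk2 (−1.78), Pfkl (−0.07) and Slc16a3 (−0.69) in Cst7 Spp1 phagocytes. Thinning and dropping libraries leave fewer counts; other causes were not tested. No day call turned round under any alternative. Cluster classes gave no monocyte-derived macrophages, so that alternative was not run there. Depth limits Aldoc, Eno2, Adm, Egln1 and Egln3.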

Other observations

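Outside the members, the enolase of migratory dendritic cells was Eno3, the muscle isoform, at 481 and 373 CPM on day 14 and 556 and 515 CPM on day 5, which is 5.62 ± 0.19 above the mean of the other classes on the log2 scale (edgeR, adjusted p = 3.48e-28), in cells where Eno1 was lower (−1.29 ± 0.15, adjusted p = 1.30e-09). The same cells had Bhlhe40, a hypoxia-inducible repressor, at 540 and 653 CPM on day 14 and 588 and 803 CPM on day 5 (2.35 ± 0.17, adjusted p = 1.53e-16). In cDC1, Taldo1, the transaldolase of the pentose phosphate pathway, stood at 1108 and 1239 against 929 and 847 CPM (1.47 ± 0.11, adjusted p = 4.47e-15). In cDC2, 4 of 16 tricarboxylic acid cycle genes were higher. Of all genes there, 25.8% passed in either direction (1271 higher and 517 lower of 6937). The 4 genes included Fh1 (1.71 ± 0.15, adjusted p = 1.98e-12) and Mdh2 (1.29 ± 0.12, adjusted p = 6.08e-12). In neutrophils Adpgk, an ADP-dependent glucokinase, was at 18.7 and 0 CPM on day 14 against 284 and 359 CPM on day 5 (log2 change −5.08 ± 0.65, adjusted p = 8.37e-04) and at 0 and 0 against 16.2 and 11.3 CPM within cluster 6. Bhlhe40 rose in neutrophils, at 178 and 275 CPM on day 14 against 75.2 and 67.5 CPM on day 5 (1.46 ± 0.36, adjusted p = 0.0204).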
